A study of Mus musculus with 4 samples.

Results

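ABC transporter genes were examined in a BET-inhibitor-sensitive and a BET-inhibitor-resistant mouse B-lymphoma line. Members were the protein-coding genes whose symbol is Abc followed by a subfamily letter from a to g, digits and an optional letter. The annotation holds 50 such genes, of which 30 had a row among the 16591 genes of the count table, and the other 20 were not analysed here. RNA was sequenced from the line JQ1S, sensitive to the BET bromodomain inhibitor JQ1, and from the line JQ1R, resistant to it, with 2 libraries of each. Both are Eμ-Myc lines of strain C57BL/6, so both carry a Myc transgene driven by the immunoglobulin heavy-chain enhancer, and both were grown as early-passage cells with no drug named at harvest. Each kind is represented by 1 line, so resistance and whatever else sets these lines apart cannot be told apart, and nothing in the labels says that the libraries of a line came from separate cultures. P-values therefore measure only the spread between these libraries, which may be technical.

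ABC proteins bind and hydrolyse ATP through paired nucleotide-binding domains, and most use that energy to move a substrate across a membrane. Drug efflux pumps of the plasma membrane, such as P-glycoprotein and the multidrug resistance proteins, lower the amount of many drugs inside tumour cells, and are a textbook route to drug resistance. Other members move phospholipids and sterols, serve mitochondria in heme and iron-sulfur metabolism, or load fatty acids into peroxisomes, and the subfamilies E and F carry the ATP-binding domains without a membrane part and act on ribosomes.

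Promoter sequence is shown for Abcb4 and Abca2, the members that differed between the lines, and for Abcb1b, the expressed neighbour and relative of Abcb4. Each sequence is the 250 bases before the RefSeq start on GRCm38.p6, written 5′ to 3′ on the strand of the gene, which is the plus strand for all of them, and capitals mark a match to a motif searched on both strands. They are chr5:8893471-8893720 for Abcb4, chr5:8797897-8798146 for Abcb1b and chr2:25428349-25428598 for Abca2.
Abcb4: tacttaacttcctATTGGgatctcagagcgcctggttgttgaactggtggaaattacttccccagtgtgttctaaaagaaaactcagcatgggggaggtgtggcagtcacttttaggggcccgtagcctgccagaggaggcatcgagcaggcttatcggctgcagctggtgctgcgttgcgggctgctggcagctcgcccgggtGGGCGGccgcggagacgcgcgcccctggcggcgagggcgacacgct
Abcb1b: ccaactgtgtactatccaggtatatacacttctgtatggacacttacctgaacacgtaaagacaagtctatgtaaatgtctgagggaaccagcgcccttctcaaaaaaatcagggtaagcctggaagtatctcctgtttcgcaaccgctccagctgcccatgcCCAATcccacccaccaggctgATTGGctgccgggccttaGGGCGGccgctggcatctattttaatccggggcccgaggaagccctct
Abca2: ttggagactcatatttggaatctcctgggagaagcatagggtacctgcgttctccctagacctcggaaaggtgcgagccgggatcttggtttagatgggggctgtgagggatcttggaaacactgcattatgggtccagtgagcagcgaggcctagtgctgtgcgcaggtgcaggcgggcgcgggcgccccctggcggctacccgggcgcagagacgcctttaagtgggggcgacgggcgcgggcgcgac
The motifs were the E-box CACGTG, the GC box GGGCGG, the CCAAT box CCAAT, the TATA box TATAAA, the sterol response element TCACNCCAC and the antioxidant response element TGACNNNGC. Abcb4 held a GC box from position -46 and a reversed CCAAT box from position -237, counted back from the start site. Abcb1b held a GC box at almost the same place, from position -48, with a forward CCAAT box from -87 and a reversed one from -66. Abca2 held 0 of these motifs within 250 bases, although 63.2% of its bases were G or C, and Abcb4 had 61.6% and Abcb1b 52.8%. No motif match overlapped another in these windows. Over all 32851 promoter windows of this length the GC box was found in 32.7%, the CCAAT box in 33.8%, the antioxidant response element in 10.2%, the TATA box in 12.4%, the E-box, which MYC can bind, in 6.02% and the sterol response element in 1.05%. Of the 30 members, 23 matched a window, with 29 windows in all. A GC box lay in 18 of the 29, a CCAAT box in 7, an E-box in 3 (Abca1, Abcc4 and Abcf1), an antioxidant response element in 3 (windows of Abcc10 and Abcc4), a TATA box in 2 and a sterol response element in 1, that of Abca3. Windows are not independent genes, since Abcc10, Abcf2 and Abcg2 each gave more than 1 window with a GC box. Those of Abcf2 overlap and share a site. A match is a description of letters and shows no binding.

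Total counts ranged from 10346007 to 13048103 per library, and 1 count was worth 0.0766 to 0.0967 CPM, the count scaled to a fixed library size, before TMM factors. All 8 B-cell markers were expressed, with a summed level of 3443 and 3526 CPM in the sensitive and 3763 and 3645 CPM in the resistant libraries, and 0 of the 8 were called. Markers of T, myeloid and erythroid cells were scarce. The table held 2 of 6 T-cell markers at a summed 0.194 to 0.539 CPM, 4 of 6 myeloid markers at 1.17 to 2.29 CPM and 0 of 5 erythroid markers. Of 5 stromal and endothelial markers only Pecam1 and Cdh5 had a row. Cdh5 stood at 1.17 to 1.56 CPM, but Pecam1, which B cells also express, was not scarce, at 87.2 to 99.1 CPM. In bulk RNA of this kind, fewer cells expressing a gene and less RNA per cell cannot be told apart.

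The comparison asked whether transporter genes, drug pumps above all, were expressed differently in the resistant line. Of the 22 members with enough counts to test, 2 rose in resistant cells, Abcb4 and Abca2, both of the lipid and sterol class, and 0 fell (edgeR, adjusted p below 0.05 over 11945 genes). None of the 5 tested drug efflux pumps was called, 1 of them with an unadjusted p below 0.05. Over all tested genes 3.73% were called, 2.20% higher and 1.52% lower, so that 2 of 22 members is a small count that shows nothing particular to the family. At an unadjusted p below 0.05 there were 6 members of 22, beside 16.9% of all genes. A positive log2 change was found in 13 members, beside 50.9% of all tested genes, and the median was 0.09 over the members and 0.00 over all tested genes. In 13 of the 22 the libraries of one line lay entirely above those of the other, beside 47.3% of all tested genes. In 12 of the 22 the difference between the lines was larger than both differences between libraries of the same line, beside 34.4% of all tested genes. DESeq2 called 1 member, Abcb4, beside 1.67% of all genes, and limma-voom called Abcb4 and Abca2, beside 3.69%.

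**Figure D1:**
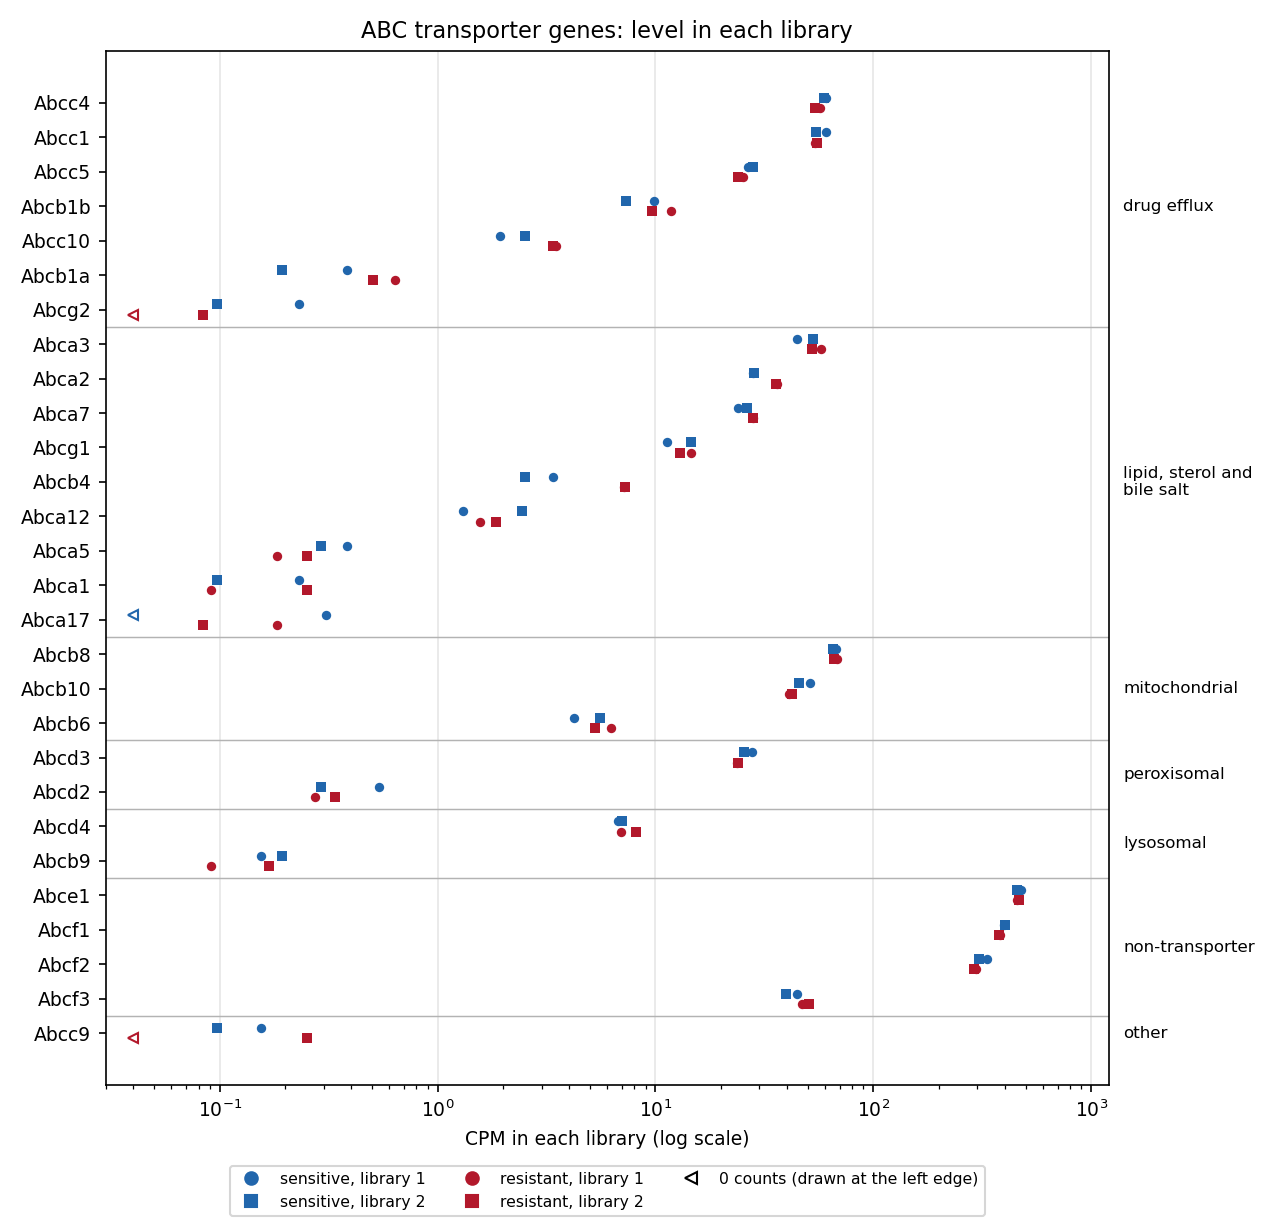
Level of 28 of the 30 ABC transporter genes in each library, in CPM on a log scale, grouped by class; circles and squares are libraries 1 and 2, blue the sensitive and red the resistant line, and open triangles mark 0 counts. The non-transporter genes Abce1, Abcf1 and Abcf2 sit at 289 to 477 CPM, and the red points of Abcb4 at 7.14 and 7.24 CPM lie to the right of its blue points at 2.53 and 3.39 CPM.

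**Figure D2:**
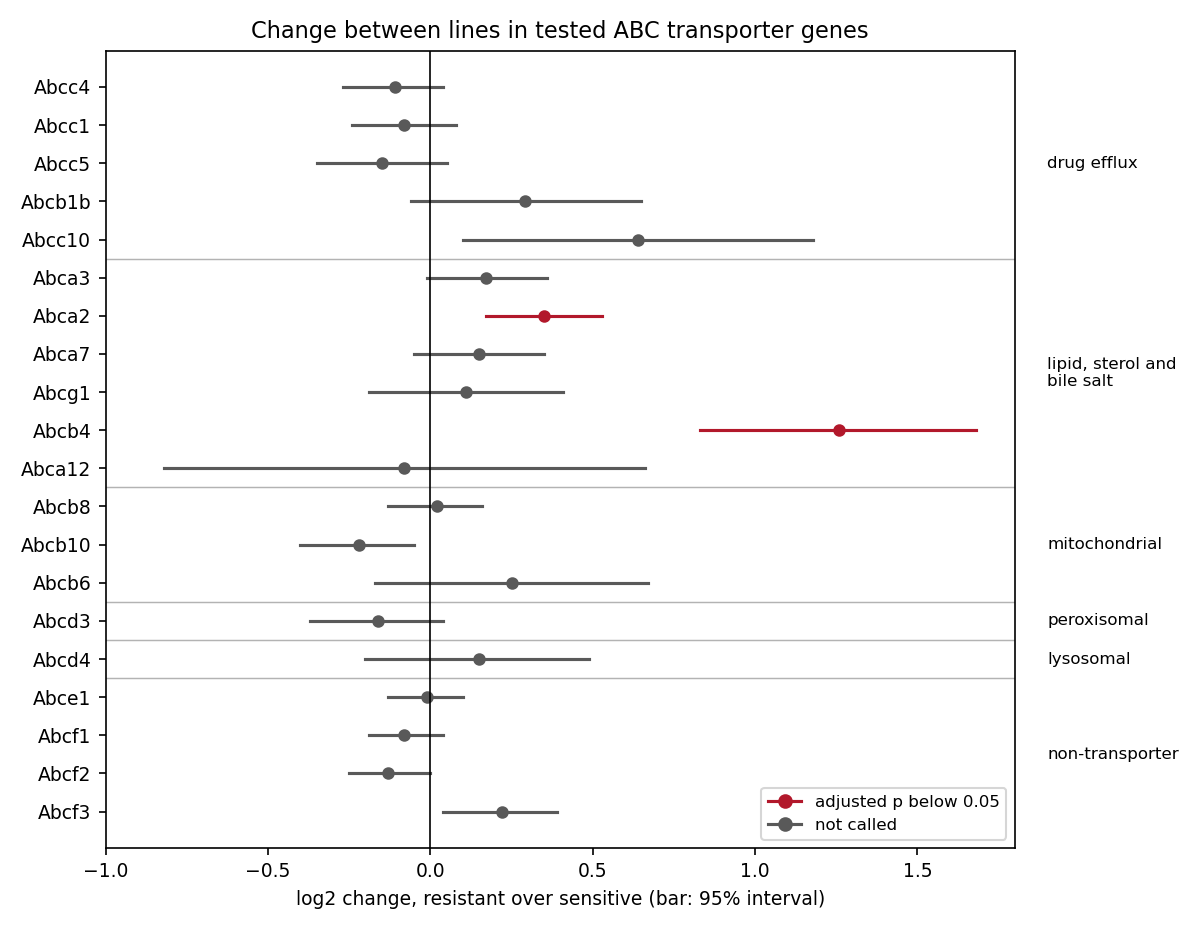
Log2 change of 20 of the 22 tested ABC transporter genes in resistant over sensitive cells, as points with 95% intervals for each gene by itself, grouped by class, with called genes in red. Abcb4 at 1.26 and Abca2 at 0.35 are the called genes, and Abcc10, Abcb10, Abcf3 and, barely, Abcf2 have intervals clear of 0 without being called.

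Among the drug efflux pumps, Abcc4 and Abcc1 were the most abundant. Abcc4, which exports cyclic nucleotides and prostaglandins as well as drugs, stood at 60.3 and 59.6 CPM in the sensitive and 57.1 and 53.7 CPM in the resistant libraries. All resistant values lay below the sensitive ones, by less than the test could call (log2 change -0.11, 95% interval -0.27 to 0.04, edgeR adjusted p = 0.451). Abcc1, the multidrug resistance protein that exports glutathione conjugates and leukotriene C4, stood at 60.3 and 54.7 CPM in the sensitive line and 54 and 55.1 CPM in resistant cells. The lines overlapped (-0.08, interval -0.24 to 0.08, edgeR adjusted p = 0.642). Abcc5, an exporter of cyclic nucleotides, had 26.6 and 27.9 CPM in the sensitive line and 25.1 and 23.9 CPM in resistant libraries, with a log2 change of -0.15 (interval -0.35 to 0.05) and an edgeR adjusted p of 0.444. In these 3 pumps the interval reached no higher than 0.08 on the log2 scale.

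Abcb1b and Abcb1a together encode mouse P-glycoprotein, the best known drug efflux pump. Abcb1b stood at 9.86 and 7.29 CPM in the sensitive line and 11.8 and 9.6 CPM in resistant libraries. The lower resistant library lay below the higher sensitive one (log2 change 0.29, interval -0.06 to 0.65, edgeR adjusted p = 0.393). Leaving out 1 library moved the log2 change of Abcb1b between 0.11 without sensitive replicate 2 (edgeR adjusted p = 0.754) and 0.55 without sensitive replicate 1 (0.0348). The gene was called in the latter setting alone, in which 11.3% of all tested genes were called. Abcb1a had 5 and 2 counts in sensitive and 7 and 6 counts in resistant libraries, too few to test, and Abcb1b exceeded it 18.4-fold to 37.5-fold in CPM within a library. These paralogs share sequence, with 16.3% of the 50-base stretches of Abcb1a transcripts present in Abcb1b, so the division of reads between them is uncertain. Abcg2, the breast cancer resistance protein, had 3 and 1 counts in sensitive and 0 and 1 counts in resistant libraries. By the rule that a count of 0 allows up to 3 counts, the resistant library without a count could hold up to 0.275 CPM, and no difference in Abcg2 was detectable at this depth. Abcc10, another multidrug resistance protein, had the largest difference among the tested pumps. It stood at 1.93 and 2.53 CPM in the sensitive line and 3.48 and 3.37 CPM in resistant libraries, from 25, 26, 38 and 40 counts. Both resistant libraries were the higher, yet the change missed the threshold (log2 change 0.64 ± 0.26 (SE, n = 2 libraries per line), interval 0.10 to 1.18, edgeR adjusted p = 0.205).

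Abcb4 showed the largest difference of any tested member. It encodes the translocator that brings phosphatidylcholine to the outer membrane leaflet, best known in the bile canaliculi of the liver, and it lies beside the P-glycoprotein genes, from which it differs in its main substrate. Its level was 3.39 and 2.53 CPM in the sensitive libraries and 7.14 and 7.24 CPM in the resistant libraries, from 44, 26, 78 and 86 counts. Both resistant libraries stood well above both sensitive ones, and the exact Poisson intervals of the counts did not meet, with 4.55 CPM the highest upper bound in sensitive and 5.64 CPM the lowest lower bound in resistant cells. These intervals cover counting error only, and as reads were counted without molecular identifiers, they may be too narrow even for that. Means were 2.96 ± 0.611 and 7.19 ± 0.0703 CPM (SD, n = 2). The fold fitted by edgeR, which adds a small prior count, was 2.39, or 1.26 ± 0.20 (SE) on the log2 scale (edgeR adjusted p = 0.00115). Abcb4 was called in DESeq2 (adjusted p = 0.0322) and limma-voom (0.00232) too, and its log2 change ran from 1.08 without sensitive replicate 2 to 1.50 without sensitive replicate 1. Per kilobase of annotated exon, Abcb4 stood at 0.315 CPM in the sensitive line and 0.766 CPM in resistant cells, places 21 and 20 of the 30 members, so the gene remained one of the weaker members after its rise.

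On GRCm38, Abcb4 lies on the plus strand of chromosome 5 at 8893717 to 8959231, as the last of a tandem trio with Abcb1a (8660077 to 8748575) and Abcb1b (8798147 to 8866315). The ratio of Abcb4 to Abcb1b CPM was 0.344 and 0.347 in the sensitive and 0.605 and 0.754 in the resistant libraries. It was higher in both resistant libraries, and with 2 libraries against 2 an exact two-sided permutation test cannot go below p = 0.333. Only 2.87% of the 50-base stretches of Abcb4 transcripts occur in another gene, 1.36% in Abcb1a and 0.704% in Abcb1b, and none of its exonic bases overlap an annotated gene. Of the 16 genes of the table next to it in order, as many on each side, the farthest starts 4148.7 kb away. Among them 9 could be tested, with log2 changes of -0.21 to 0.36. Of these 0 were called, beside 3.73% of all tested genes, and so few genes show nothing particular to the region. Crot, a peroxisomal carnitine acyltransferase and the next gene, stood at 11.9 and 11.3 CPM in the sensitive line and 13.4 and 14.5 CPM in resistant libraries (0.27, edgeR adjusted p = 0.296). Dbf4, which encodes the activating subunit of the replication kinase CDC7, stood at 113 and 113 CPM and at 123 and 114 CPM (0.06, edgeR adjusted p = 0.688). Dmtf1, a MYB-like transcription factor, had the lowest change of the neighbours (-0.21, edgeR adjusted p = 0.135).

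**Figure D3:**
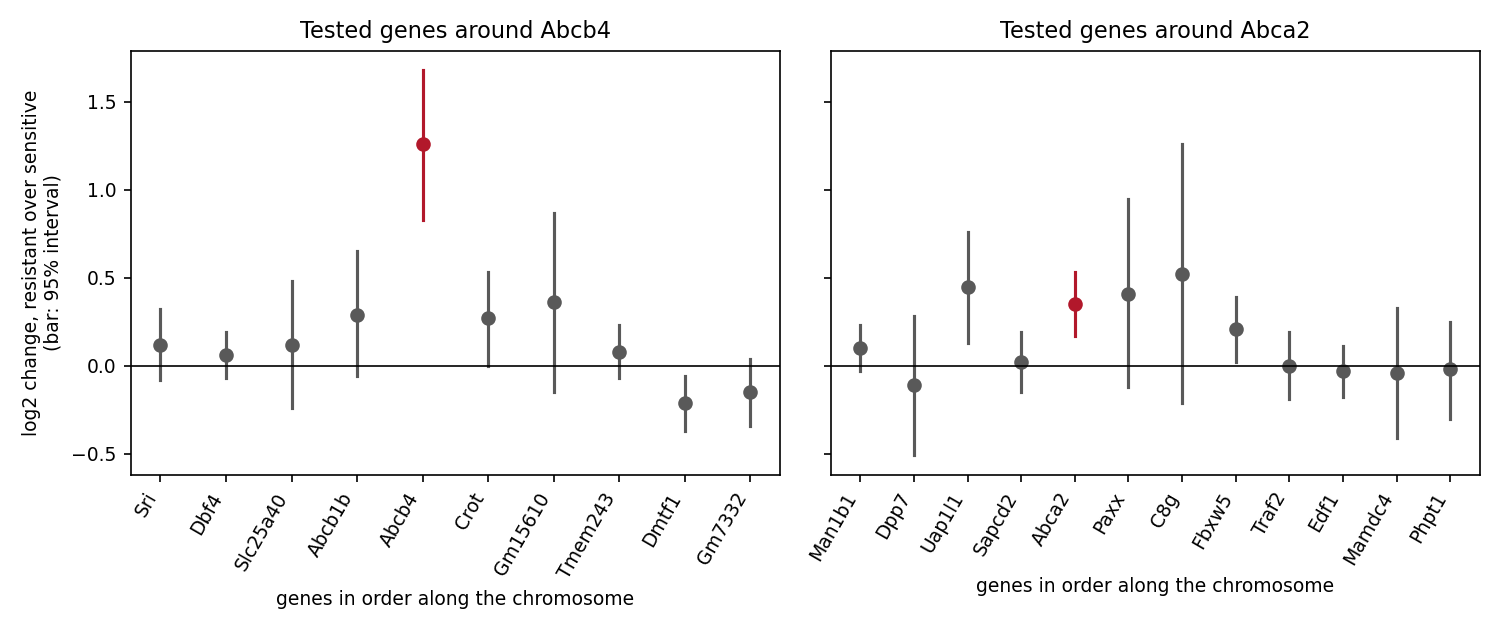
Log2 change, resistant over sensitive, of the tested genes around Abcb4 and Abca2 in their order along chromosomes 5 and 2, as points with 95% intervals, with called genes in red. Abcb4 at 1.26 stands above its 9 tested neighbours, which lie from -0.21 to 0.36, whereas Abca2 at 0.35 lies within the range of its 11, from -0.11 to 0.52.

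Abca2, a transporter of endosomes and lysosomes linked to sterol and sphingolipid traffic, rose by less. It stood at 28.1 and 28.4 CPM in the sensitive and 36.2 and 35.9 CPM in the resistant libraries, with close agreement inside each line and no overlap between them. The 1.27-fold rise was 0.35 ± 0.09 on the log2 scale (SE, n = 2 per line, edgeR adjusted p = 0.03). DESeq2 did not call Abca2 (adjusted p = 0.426), and the call was lost without resistant replicate 1 (adjusted p = 0.193) and without resistant replicate 2 (0.192), at log2 changes of 0.34 and 0.36. The gene lies on the plus strand of chromosome 2 at 25428703 to 25448540, in a dense stretch of genes. Of the 16 genes next to it in order, 11 could be tested and 0 were called, beside 3.73% of all tested genes. Uap1l1 (0.45, edgeR adjusted p = 0.126) and C8g (0.52, edgeR adjusted p = 0.479) had the highest changes among them.

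Of the other lipid transporters 4 were tested and 0 called. Abca3, which packs phospholipid into lamellar bodies, was the most abundant of the class at 44.8 and 52.7 CPM in the sensitive line and 57.3 and 52.2 CPM in resistant libraries. The lines overlapped (log2 change 0.17, interval -0.01 to 0.36, edgeR adjusted p = 0.33). Leaving out sensitive replicate 1 gave 0.05 for Abca3 (edgeR adjusted p = 0.765), and leaving out sensitive replicate 2 gave 0.29 (0.00741), the only library whose removal brought a call. In that setting 9.68% of all tested genes were called. An antisense transcript, D330041H03Rik, covers 9.75% of its exonic bases, and since the strand setting of the counting is not given in the sources used here, their reads may be mixed. Abca7, a phospholipid transporter of phagocytes and brain, had 24 and 26.4 CPM in the sensitive line and 27.9 and 27.9 CPM in resistant libraries (0.15, interval -0.05 to 0.35, edgeR adjusted p = 0.442). Abcg1, which passes cholesterol to lipoprotein particles, had 11.3 and 14.5 CPM against 14.6 and 12.9 CPM, with overlap (0.11, interval -0.19 to 0.41, edgeR adjusted p = 0.753). Abca12, known for lipid delivery in skin, was scarce at 1.31 and 2.43 CPM against 1.56 and 1.85 CPM (-0.08, interval -0.82 to 0.66, edgeR adjusted p = 0.94). Abca1, the exporter of cholesterol to apolipoprotein A1, had 3 and 1 counts in sensitive and 1 and 3 counts in resistant libraries.

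None of the mitochondrial members was called. Abcb8, a transporter of the inner membrane, stood at 67.4 and 65 CPM in the sensitive line and 68.4 and 65.7 CPM in resistant libraries (log2 change 0.02, interval -0.13 to 0.16, edgeR adjusted p = 0.935). Its lines overlapped. Abcb10, which takes part in heme synthesis, stood at 51.3 and 45.6 CPM in the sensitive line and 40.9 and 42.3 CPM in resistant libraries. Both resistant values were the lower, short of the threshold (-0.22, interval -0.40 to -0.05, edgeR adjusted p = 0.165). The value for Abcb10 was -0.13 without sensitive replicate 1 (edgeR adjusted p = 0.4) and -0.30 without sensitive replicate 2 (0.00515), with a call in the latter setting alone, beside the same 9.68% of all genes. Another gene on the other strand, Gm45890, covers 10.3% of its exonic bases. Abcb6, a porphyrin transporter, had 4.24 and 5.54 CPM against 6.22 and 5.3 CPM, with overlap (0.25, interval -0.17 to 0.67, edgeR adjusted p = 0.563). Its counts are uncertain, because 55.2% of its exonic bases also belong to Gm29253 on the same strand.

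Peroxisomal and lysosomal members likewise gave no call. Abcd3, which imports branched-chain fatty acids and bile acid precursors, stood at 27.7 and 25.4 CPM in the sensitive line and 23.7 and 23.8 CPM in resistant libraries (log2 change -0.16, interval -0.37 to 0.04, edgeR adjusted p = 0.409). Both resistant libraries lay below both sensitive ones. Abcd2, a peroxisomal transporter of fatty acids, had 7 and 3 counts in sensitive and 3 and 4 in resistant libraries, and was not tested. Abcd4, the lysosomal exporter of cobalamin, had 6.71 and 7 CPM against 6.96 and 8.16 CPM, with overlap (0.15, interval -0.20 to 0.49, edgeR adjusted p = 0.702). Abcb9, a lysosomal peptide transporter related to TAP, had 1 to 2 counts per library.

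Of the members without a membrane part, Abce1, Abcf1 and Abcf2 were by far the most abundant in the family, while Abcf3 stood far lower. Abce1, which splits ribosomes into subunits after termination, stood at 477 and 455 CPM in the sensitive line and 457 and 466 CPM in resistant libraries, with overlap (log2 change -0.01, interval -0.13 to 0.10, edgeR adjusted p = 0.939). Abcf1, a factor of translation initiation, stood at 399 and 402 CPM against 381 and 378 CPM (-0.08, interval -0.19 to 0.04, edgeR adjusted p = 0.498). Abcf2 stood at 333 and 305 CPM against 296 and 289 CPM (-0.13, interval -0.25 to -0.00, edgeR adjusted p = 0.293), with -0.06 without sensitive replicate 1 (adjusted p = 0.501) and, as its only call, -0.19 without sensitive replicate 2 (0.00289). Beside 47.3% of all tested genes whose lines did not overlap in either direction, Abcf1 and Abcf2 both lay lower in the resistant libraries without overlap. Abcf3 went the other way, at 44.5 and 39.6 CPM in the sensitive line and 47.2 and 50.7 CPM in resistant libraries (0.22, interval 0.04 to 0.39, edgeR adjusted p = 0.184), with 0.14 without sensitive replicate 2 (adjusted p = 0.323) and, as its only call, 0.31 without sensitive replicate 1 (0.00815). Those calls of Abcf2 and Abcf3 came in the settings that called 9.68% and 11.3% of all genes. Per kilobase of annotated exon the order in sensitive cells was Abcf2 at 124 CPM, Abcf1 at 90.8 CPM and Abce1 at 77.6 CPM. The same 3 genes led in resistant cells, at 114, 86.1 and 76.9 CPM per kilobase. Abcb8 was in place 6 of the 30 members in both lines, at 14 and 14.2 CPM per kilobase. The highest drug pump on this scale was Abcc4, in place 9 at 9.38 CPM per kilobase in sensitive and 8.67 CPM in resistant cells.

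Set side by side, the classes differed more in level than in change. Summed CPM of the 7 drug efflux pumps was 160 and 152 in sensitive and 152 and 146 in resistant libraries, a near match between the lines. Most of it came from Abcc1, Abcc4 and Abcc5, with log2 changes of -0.08, -0.11 and -0.15. Abcb1b (0.29) and Abcc10 (0.64) went the other way but added little to the sum. Of the pumps 0 of 5 tested were called, with a median log2 change of -0.08. The 9 lipid, sterol and bile salt transporters summed to 114 and 127 CPM in the sensitive line and 145 and 139 CPM in resistant libraries, with 2 of 6 tested called higher and a median of 0.16. Without Abca2 and Abcb4 the sums of the other 7 were 82.2 and 96.4 CPM against 102 and 95.5 CPM, and the lines overlapped. Of the mitochondrial members 0 of 4 tested were called, and of the peroxisomal members 0 of 2. Over all tested genes 3.73% were called, 2.20% higher, with a median log2 change of 0.00. The count in the lipid class rests on Abcb4 and Abca2 alone, and DESeq2 did not call Abca2. As shares of all counts of the family, drug pumps took 8.69% (exact Clopper-Pearson 95% interval 8.34 to 9.06) and 8.55% (8.15 to 8.97) in sensitive and 8.52% (8.13 to 8.92) and 8.25% (7.88 to 8.63) in resistant libraries. Lipid members took 6.2% (5.89 to 6.51) and 7.15% (6.78 to 7.53) against 8.13% (7.75 to 8.52) and 7.81% (7.46 to 8.19). Such intervals cover counting error only. In the lipid class those of the sensitive libraries did not meet each other, so libraries of one line differed by more than they cover. The 4 non-transporter members took 66.1% to 68.2%. The whole family took 0.177% to 0.183% of the counts of a library. With 2 to 6 tested genes per class these are descriptions, and the difference between classes was not tested.

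**Figure D4:**
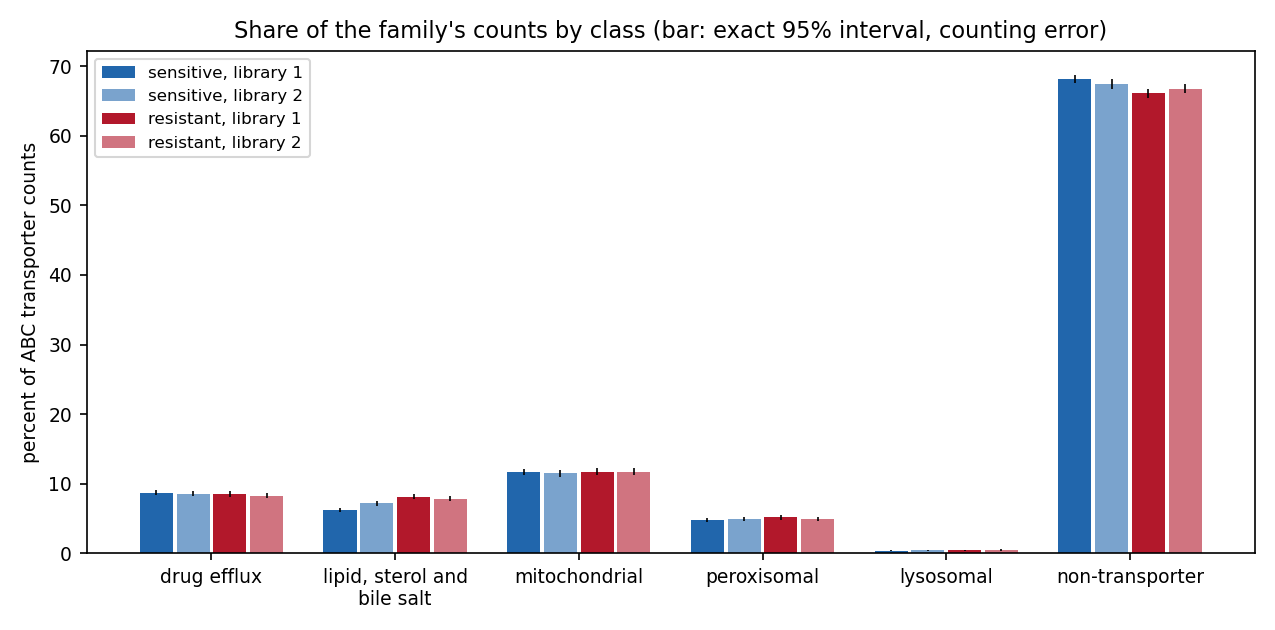
Share of all ABC transporter counts taken by each class in each library, as bars in percent, with thin lines for the exact 95% interval of counting error; blue is the sensitive and red the resistant line. Non-transporter genes take 66.1% to 68.2%, drug pumps lie at 8.25% to 8.69% in both lines, and the lipid class at 6.2% and 7.15% in sensitive and 8.13% and 7.81% in resistant libraries.

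The 8 members in the table that were not tested had 0 to 7 counts per library and 5 to 20 summed over libraries. Besides those named above they were Abca5 and Abca17 of the lipid subfamily A and Abcc9, a regulatory subunit of potassium channels. Abca5 had 5 and 3 counts in sensitive and 2 and 3 in resistant libraries, and Abca17 had 4 and 0 against 2 and 1. Abcc9 had 2 and 1 against 0 and 3. None of these levels can separate the lines at this depth. The limit of 3 counts for a library at 0, which is a rule of its own and lower than the upper end of the exact Poisson interval (3.69 counts), came to 0.231 to 0.292 CPM.

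Genes of pathways tied to ABC proteins, of drug response and of other transporter families were counted in 10 lists. Outside the family 112 list genes were tested, of which 4 rose and 0 fell, or 3.57% called, beside 3.73% of all genes. The genes that rose were Tap1, B2m, Srebf1 and Acox3. Of 8 tested genes of antigen peptide loading 2 rose. Tap1, itself an ABC protein under another symbol and part of the pump that carries peptides into the endoplasmic reticulum, stood at 21.3 and 23 CPM in the sensitive line and 32.2 and 33.4 CPM in resistant libraries (log2 change 0.57, edgeR adjusted p = 0.00136). Its partner Tap2 did not pass (0.27, edgeR adjusted p = 0.103), and B2m, the light chain of class I molecules, rose from 282 and 304 CPM to 344 and 338 CPM (0.22, edgeR adjusted p = 0.0456). In both genes that rose the lines did not overlap, beside 47.3% of all tested genes.

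Sterol efflux and its control held 12 tested genes including Abcg1, with 1 higher, 0 lower and a median of 0.09. The gene that rose was Srebf1, the sterol-regulated transcription factor of lipid synthesis, from 80.7 and 78.5 CPM to 93.5 and 95.3 CPM (0.25, edgeR adjusted p = 0.0433). Of 19 genes of peroxisome import and beta-oxidation 1 rose and 0 fell, with a median of 0.05. This was Acox3, a peroxisomal acyl-CoA oxidase of branched-chain fatty acids, from 27.5 and 30.6 CPM to 35.8 and 37.7 CPM (0.34, edgeR adjusted p = 0.0423). In the other 7 lists 0 genes were called in edgeR, and the gene with the smallest p in each is given here. Counts at an unadjusted p below 0.05 stand beside 16.9% of all tested genes. Heme and iron-sulfur cluster synthesis had 17 tested genes, 2 with an unadjusted p below 0.05, and was led by the heme-degrading enzyme Hmox1 (-0.63, edgeR adjusted p = 0.0952). Ribosome recycling and rescue had 12, with 2 below 0.05, led by the stress kinase gene Eif2ak4 (-0.18, edgeR adjusted p = 0.14). Cobalamin handling had 9, with 2 below 0.05, led by Lmbrd1, the lysosomal partner of ABCD4 (0.24, edgeR adjusted p = 0.115). Drug-response regulators had 7, with 4 below 0.05, led by Nfe2l2, the transcription factor of the antioxidant response (-0.16, edgeR adjusted p = 0.246). Those 4, Nfe2l2, Hsf1, Ybx1 and Foxo1, were all lower in resistant cells, with log2 changes of -0.12 to -0.16. The other 3 had positive changes. Glutathione synthesis and conjugation had 10, with 2 below 0.05, led by the microsomal transferase Mgst1 (0.70, edgeR adjusted p = 0.259). Solute carriers of drugs and nucleosides had 8, with 2 below 0.05, led by the nucleoside carrier Slc29a2 (-0.36, edgeR adjusted p = 0.0899). Lipid flippases and scramblases had 11, with 1 below 0.05, led by Atp9b (0.22, edgeR adjusted p = 0.208). The medians of these 7 lists lay between -0.12 and 0.08.

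**Figure D5:**
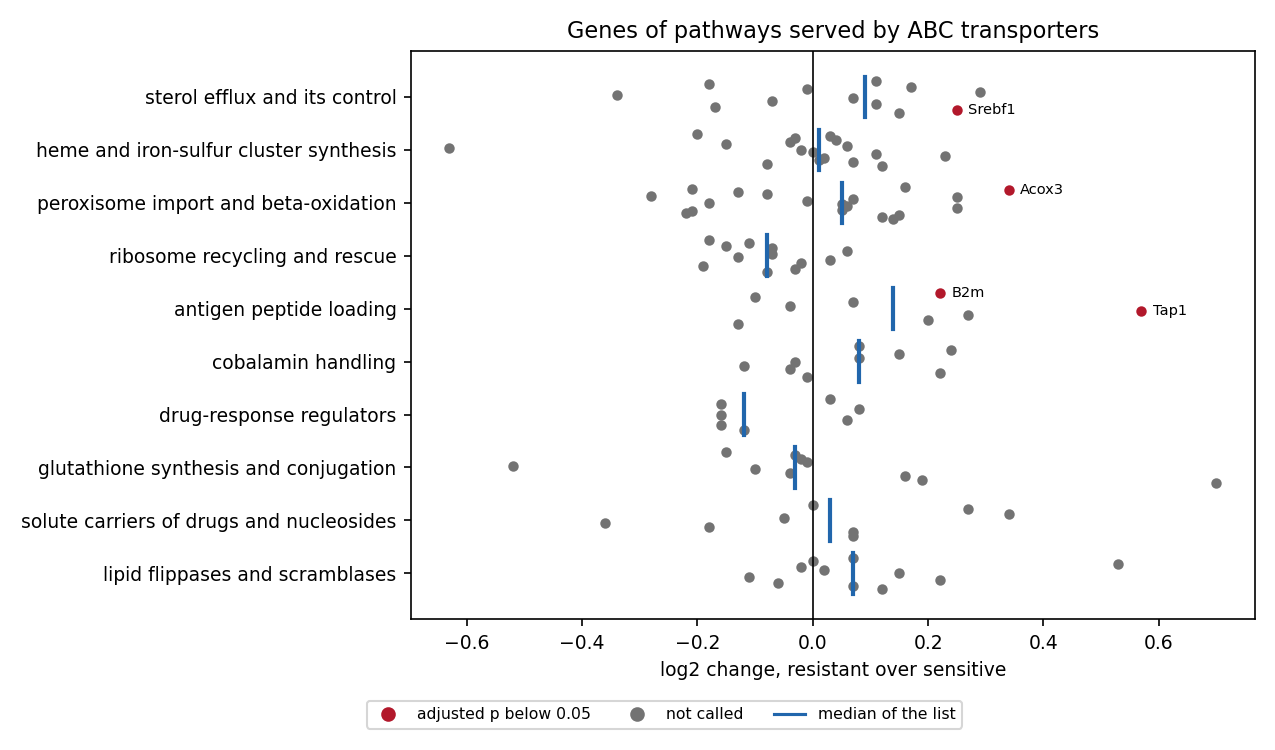
Log2 change, resistant over sensitive, of tested genes in 10 lists, which cover pathways tied to ABC proteins, drug response and other transporter families. Each gene is 1 point, called genes are red and named, and the median of each list is a blue bar. The called genes are Tap1 at 0.57, Acox3 at 0.34, Srebf1 at 0.25 and B2m at 0.22, and all list medians lie between -0.12 and 0.14.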

How the data were processed

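The authors deposited unnormalized read counts by Ensembl gene identifier for 4 libraries. TopHat, Bowtie2, HTSeq, FastQC, limma and cutadapt 1.7 appear in the submitters' processing notes, as do the build names mm10 and GRCm38. Tool order, strand setting and annotation were not given in the sources used here. Per the labels' protocols the library kit was TruSeq RNA. Groups came from the titles. Symbols, positions and exon lengths came from GENCODE M21 on GRCm38, which matched 16407 of 16591 identifiers, and promoters from RefSeq on GRCm38.p6. The lowest count in the table summed over libraries was 4.

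Counts were fitted across all genes with edgeR 4.0.16 (R 4.3.3) by the quasi-likelihood test with TMM factors, the group alone as model and filterByExpr (minimum count 10, minimum total 15), and p-values were adjusted by Benjamini-Hochberg over the 11945 genes kept. A gene was called at an adjusted p below 0.05. Standard errors and 95% intervals of log2 changes were derived from the F statistic and are not adjusted for the number of genes. CPM used library sizes times TMM factors. Shared sequence was the share of a gene's transcript stretches of 50 bases found in transcripts of another gene on either strand. Scripts were tested on simulated data. Alternatives were other scalings (RLE, upper-quartile, library size), no filter, DESeq2 1.42.0, limma-voom (limma 3.58.1), a replicate block and each library left out.

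Members, classes and lists were chosen with earlier results of these data known. Named were all called members, tested members of the drug, mitochondrial, peroxisomal, lysosomal and non-transporter classes, lipid members of at least 1 CPM, and of each other list the called genes or else the smallest p. Of these members 2 are counted in totals but not reported here. Untested members, neighbours of called members, Tap2 and their values were added after the values were seen.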

Additional observations from a re-analysis of the deposited data

How the results depend on the processing

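DESeq2 called 202 genes in all and 1 member, Abcb4, where edgeR called 445 and 2. Leaving out a library gave 270 to 1381 genes and 1 to 5 members, with 270 without resistant replicate 2, 302 without resistant replicate 1, 1187 without sensitive replicate 2 and 1381 without sensitive replicate 1. A line left with 1 library is then assumed to vary like the other, and the cause of the higher counts was not tested. The replicate block gave 595 genes and the same 2 members, and the other 5 settings also called Abca2 and Abcb4. Deviations of libraries with the same number had a correlation of -0.0201 over genes, and nothing in the labels pairs them. Across the 7 settings that keep all libraries 153 of 154 member values kept their direction and side of the threshold, and the exception was Abca2 in DESeq2 (0.35). On leaving out a library the log2 change turned sign for 4 genes near 0, Abca12 (-0.50 to 0.38), Abcb8 (-0.01 to 0.05), Abce1 (-0.05 to 0.02) and Abcg1 (-0.08 to 0.29), none of them called. Members with 7 or fewer counts in every library are limited by depth.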

Other observations

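Libraries of the same line differed most, among tested members, in Abca12, where sensitive replicate 1 lay below replicate 2 by a log2 difference of -0.89, from 17 and 25 counts. Abcb1b and Abcb4 were both higher in sensitive replicate 1 than in replicate 2, by 0.44 and 0.42, and their ratio in these libraries was 0.344 and 0.347. In the resistant libraries Abcb1b differed by 0.30 and Abcb4 by -0.02.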
